A study of Mus musculus with 8 samples.

Results

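Vitamin A enters cells as retinol, and the genes followed here carry it through storage, oxidation to retinoic acid and signalling in mouse epidermis: Adh7, Adh1, Aldh1a1, Aldh1a3, Crabp2, Dhrs9, Lrat, Rarg and Rxra. These 9 genes were chosen by gene symbol, with the genotype contrast of Adh7 already known, and are represented by 14 of the 25697 probes of the Illumina MouseRef-8 v2.0 array, which names 16590 genes. The study treated wild-type and REDD1 knockout (KO) mice with the glucocorticoid fluocinolone acetonide (FA) or with vehicle and profiled epidermal RNA. REDD1, encoded by Ddit4, is a stress-induced inhibitor of mTOR signalling. The 2 genotypes and 2 treatments make 4 groups of 2 arrays, each array from an individual animal.

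All animals were 7-week-old females, shaved before treatment, and epidermis was taken 24 h after a topical dose of 2 µg FA or of acetone alone. The labels call the acetone arrays untreated and give strain B6D2 and the posterior ear lobe as the source of the epidermis, whereas the study's methods describe B6x129 hybrid mice and scraped dorsal epidermis for the genotype experiment. In the KO line, a LacZ/neo cassette replaces exon 2 of REDD1 in every cell, and the wild-type animals came from a separate supplier. Genotype and the source of the animals therefore cannot be told apart.

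Values are log2 signals after background correction and quantile normalization. A probe was taken as detected on an array when its detection p, from the array's negative controls, was under 0.05, and 13131 probes detected on at least 2 arrays were tested with limma. A probe was called when its Benjamini-Hochberg adjusted p over all tested probes was under 0.05. Between 44.5% and 46.7% of probes were detected per array, and arrays of a group correlated at 0.976 to 0.99. The basal keratinocyte markers Krt14 (13.84 to 14.50) and Krt5 (10.04 to 11.41) were strong on every array. The Ddit4 probe was 10.08 and 9.16 in wild-type vehicle, 10.98 and 11.14 in wild-type FA, 7.42 and 7.09 in KO vehicle and 7.88 and 8.35 in KO FA. It was therefore lower in all KO arrays (-2.37 with vehicle, adjusted p = 0.0096 by limma) but still detected there. KO FA replicate 1 stood apart, with a summed skeletal muscle marker signal of 14700 against 158 to 1630 on the other 7 arrays. Calls of the retinoid genes, on the brightest probe of each, that were lost without this array are named.

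Retinol is stored as retinyl ester, which LRAT and other acyltransferases form. Cytosolic alcohol dehydrogenases and membrane-bound short-chain dehydrogenases convert retinol to retinal reversibly, and the aldehyde dehydrogenases of the ALDH1A family oxidize retinal to retinoic acid irreversibly. CRABP2 delivers retinoic acid to heterodimers of retinoic acid receptors (RAR) and retinoid X receptors (RXR), of which RARγ and RXRα predominate in epidermis, and CYP26 enzymes degrade it. Retinoic acid is known in skin as a regulator of keratinocyte differentiation and of the sebaceous gland.

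The 250 bases before a RefSeq transcript start are shown for the 2 neighbouring alcohol dehydrogenase genes, of which Adh7 was undetected in KO while Adh1 was strong on all arrays, and for Dhrs9, which rose with FA in wild-type epidermis. The sequences are from RefSeq, build GRCm38.p6, and an entry was matched for 7 of the 9 genes. Capitals mark matches, on either strand, to AGGTCA (the repeat unit bound by RAR and RXR), AGAACA (the repeat unit bound by the glucocorticoid receptor), TGANTCA (the AP-1 motif) or TATAAA (the TATA box).
Adh7, chr3:138217523-138217772, plus strand: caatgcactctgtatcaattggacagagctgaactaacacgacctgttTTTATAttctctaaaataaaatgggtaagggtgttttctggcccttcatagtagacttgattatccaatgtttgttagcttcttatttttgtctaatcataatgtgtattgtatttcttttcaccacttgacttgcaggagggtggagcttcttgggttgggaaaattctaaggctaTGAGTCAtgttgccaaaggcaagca
Adh1, chr3:138277335-138277584, plus strand: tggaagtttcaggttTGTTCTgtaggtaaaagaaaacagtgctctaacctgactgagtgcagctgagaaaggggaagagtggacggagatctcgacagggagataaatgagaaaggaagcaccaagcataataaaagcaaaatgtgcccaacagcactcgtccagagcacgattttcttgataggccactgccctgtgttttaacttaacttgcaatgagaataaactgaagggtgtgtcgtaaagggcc
Dhrs9, chr2:69380212-69380461, plus strand: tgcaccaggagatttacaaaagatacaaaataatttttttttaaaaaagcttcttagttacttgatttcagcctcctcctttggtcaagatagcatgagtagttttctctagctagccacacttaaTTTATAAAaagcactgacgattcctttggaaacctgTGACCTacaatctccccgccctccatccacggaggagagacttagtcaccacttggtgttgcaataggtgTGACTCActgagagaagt
The whole Adh7 window lies inside the annotated gene, which spans bases 138198064 to 138232042. The annotation begins the gene upstream of this window and of the start used for it. In these windows Adh7 held TATAAA on the reverse strand 202 bases and TGANTCA 25 bases before the start, and Adh1 held AGAACA 235 bases before it. Dhrs9 held TATAAA on both strands, overlapping, 124 and 122 bases before its start, AGGTCA at 88 bases and TGANTCA at 18 bases. Of 32851 promoters of that length, 14% held AGGTCA, 16.1% AGAACA, 6.75% TGANTCA and 12.4% TATAAA. Direct repeats of AGGTCA spaced by 5 bases (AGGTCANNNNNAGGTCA) and the palindrome GNACANNNTGTNC, present in 0.00913% and 0.387% of promoters, were found in none of the 7 matched genes.

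Of the 9 genes, Aldh1a3 and Lrat were not detected on any array and were not tested. The remaining 7 were tested, and 4 of them (Adh1, Crabp2, Rarg and Rxra) had a gene probe, the one with the highest mean signal, that was detected on all 8 arrays. Lrat, the main retinol acyltransferase, read 4.19 to 4.44, and Aldh1a3, a retinal dehydrogenase, 4.27 to 4.62, both under the lowest detected signals of the arrays (4.60 to 4.67). These values give only an upper bound.

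**Figure D1:**
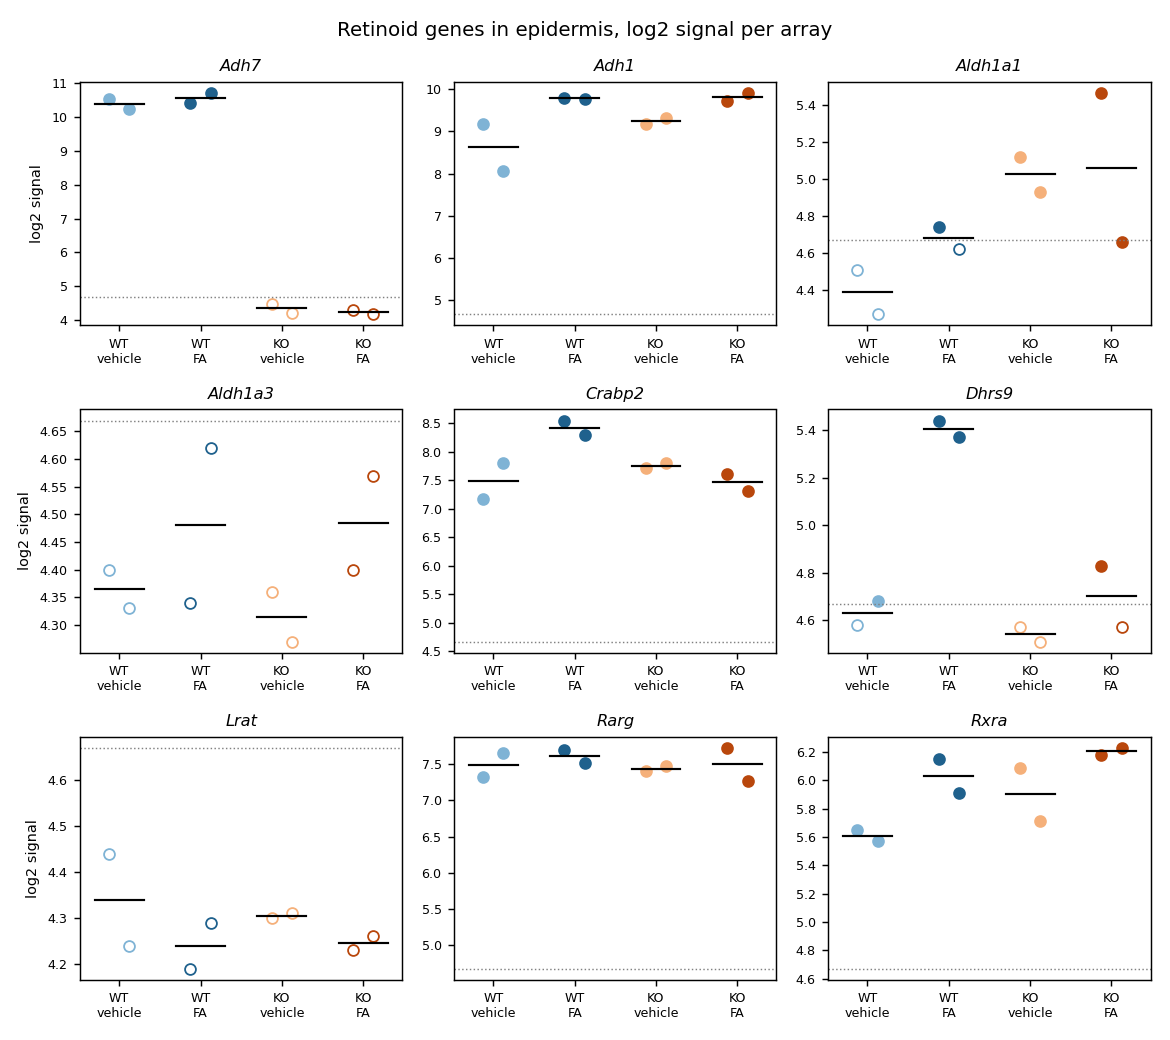
Log2 signal (y axis, a separate scale in each panel) of the gene probe of each of the 9 retinoid genes in the 4 groups (x axis), with 1 point per array, filled where the probe was detected and open where it was not, and black bars at group means. The dotted line, at 4.67, is the highest of the arrays' lowest detected signals; Adh7 lies above 10 on all wild-type arrays and below the line on all KO arrays, while Crabp2 and Dhrs9 are highest in wild-type FA.

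Adh7, the class IV alcohol dehydrogenase that oxidizes retinol, had a strong signal in wild-type epidermis and none above background in REDD1 KO epidermis. Its only probe read 10.53 and 10.24 in wild-type vehicle and 10.42 and 10.70 in wild-type FA. In KO vehicle it read 4.49 and 4.20, and in KO FA 4.29 and 4.17. The genotypes did not overlap in either treatment, and within each genotype the FA and vehicle arrays overlapped.

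Before normalization the scanner intensities of this probe were 1380, 1590, 1370 and 1730 on the wild-type arrays and 99.4, 89.2, 93.5 and 87.2 on the KO arrays. The mean negative control on the 8 arrays was 90.5 to 99.3, so the KO intensities sat at the negative controls. Since the KO values are only bounds, Adh7 was at least 54.4-fold lower in KO with vehicle and at least 59.6-fold lower with FA. These folds compare the wild-type mean with the higher of the KO value and the lowest detected signal of each KO array. These folds, and the at-least folds given later for other genes, hold for this background correction only. With vehicle the log2 difference was -6.04 here, -4.65 with an offset of 50 and -3.9 without background correction. With FA the same settings gave -6.33, -4.87 and -4.13. No test is given for the genotype difference of Adh7, because it chose the genes.

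In wild-type epidermis the FA effect on Adh7 was 0.18 (SE 0.186, adjusted p = 0.622 by limma). An FA effect in KO could not be measured, since neither group was above background.

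Adh7 lies on chromosome 3 at the start of a cluster of 6 alcohol dehydrogenase genes, and no measured gene around it had a genotype difference of like size. With 5 protein-coding genes on each side of the cluster, 12 of 16 genes had a probe and 10 were tested. Over the 9 tested neighbours, the KO difference was between -0.40 and 0.78 with vehicle and between -0.75 and 0.51 with FA. Eif4e, the mRNA cap-binding translation factor, was lower in KO with FA (-0.75, adjusted p = 0.0258 by limma), with 5.17 and 5.16 in wild type against 4.34 and 4.49 in KO, not detected there, which makes it at least 1.41-fold lower. Adh5, the class III enzyme, read 5.27 to 5.80 on all arrays, and Adh4 was not detected on any array. Adh6a and Adh6b had no named probe here.

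The 5 tested probes whose values followed those of Adh7 most closely over the 8 arrays belonged to Agpat5 (Pearson r = 0.995), Rpl29 (0.995), Mak16 (0.993), Me1 (0.988) and Tmem87a (0.987), out of 511 probes spanning at least 2 log2 units. The correlation is a description over 2 separate clusters of arrays and reflects the genotype split. None of these genes lies on chromosome 3: Agpat5 and Mak16 are on 8, Rpl29 and Me1 on 9 and Tmem87a on 2. Agpat5 and Tmem87a had no other probe. For each of the 3 genes that had one, the other probe was detected and differed far less between genotypes. Me1, malic enzyme, read 8.30 and 8.89 in wild-type vehicle against 4.27 and 4.77 in KO vehicle on the listed probe, where only the second KO array was detected. On its other probe it read 10.55 and 10.79 against 10.79 and 10.85 (0.15). Rpl29, a ribosomal protein gene, was at least 10.5-fold lower in KO vehicle on the listed probe, which was not detected there. Its other probe read 11.76 and 11.69 against 11.20 and 11.29, a smaller difference (-0.48) with no overlap, and with FA the difference was -0.61. No test is given for it, because Rpl29 was picked by a pattern that reflects the genotype split. Mak16 was at least 4.65-fold lower in KO vehicle on the listed probe, also not detected there, and read 5.41 and 5.27 against 5.28 and 5.03 on the other. Adh7 has no second probe, so the same comparison could not be made for it, and whether its KO signal reflects the amount of mRNA or the hybridization of this probe was not tested.

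**Figure D2:**
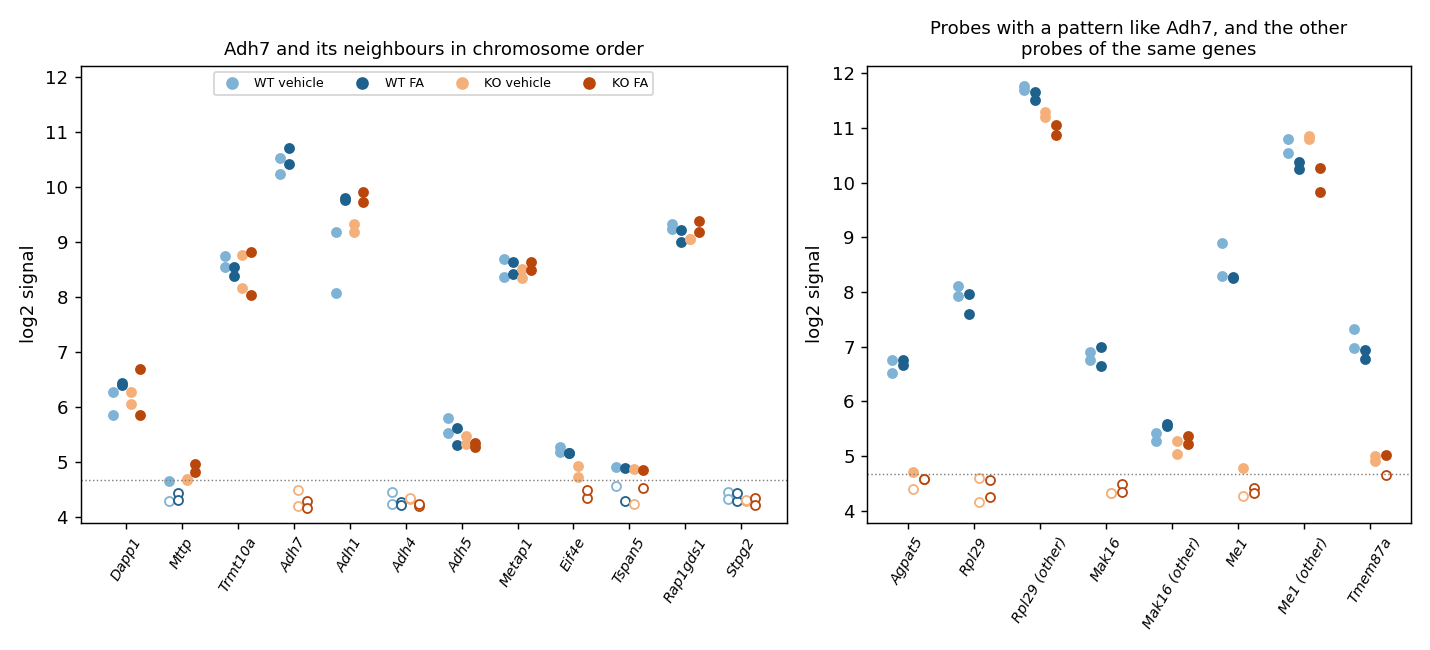
Log2 signal per array (y axes) of Adh7 and the measured genes around it in chromosome order (left) and of the probes whose pattern was most like Adh7, with the other detected probes of the same genes (right). Colours give the group and open points an undetected value; on the right the listed probes lie well below wild type on every KO array, many undetected there, and the other probes of Rpl29, Mak16 and Me1 differ by -0.61 to 0.15.

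FA raised Crabp2 and Dhrs9 in wild-type epidermis, where all 7 tested genes had a positive FA effect with a median of 0.42 against -0.02 for all tested probes. Calls were made for 2 of the 7 (Crabp2 and Dhrs9, both higher), where 6.34% of all tested probes were called in either direction. In REDD1 KO epidermis the median was 0.06 and limma called 0 of 7, against 4.51% of all probes, with 0 at an unadjusted p under 0.05 against 19.6%. Adh7 is among these 7 but was below background on all KO arrays, so its KO effect could not be measured and a call was not possible. The difference of the FA effects between genotypes was tested directly, and 0 of 7 were called against 0.0305% of all probes. Of these 7 differences, 2 had an unadjusted p under 0.05, beside 9.92% of all probes. All 7 were negative with a median of -0.29 against 0.02 for all probes. However, the KO effect of Adh7 in this median and in the counts of differences comes from values below background. The FA contrasts and their difference share arrays and are not independent of each other.

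Crabp2, which carries retinoic acid to its nuclear receptors, was 7.17 and 7.81 in wild-type vehicle and 8.55 and 8.30 in wild-type FA. In KO it was 7.72 and 7.80 with vehicle and 7.62 and 7.32 with FA. The wild-type FA arrays were higher than all others. The FA effect was 0.93 in wild type (SE 0.227, adjusted p = 0.0443 by limma) and -0.28 in KO (adjusted p = 0.536). The difference between these effects was -1.22 (SE 0.321) and did not pass (adjusted p = 0.35). In 9 of 18 alternatives the wild-type call did not hold, among them median centring (0.83, adjusted p = 0.152), no probe filter (adjusted p = 0.105) and the fits without WT vehicle replicate 1, either WT FA replicate or either KO vehicle replicate, with adjusted p-values over all of them from 0.0164 to 0.255 and effects from 0.61 to 1.25.

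Dhrs9, a short-chain dehydrogenase that oxidizes retinol, was near background except after FA in wild type. Its gene probe read 4.58 and 4.68 in wild-type vehicle, 5.44 and 5.37 in wild-type FA, 4.57 and 4.51 in KO vehicle and 4.83 and 4.57 in KO FA. It was detected on both wild-type FA arrays and on only 1 array of wild-type vehicle and 1 of KO FA. The wild-type FA effect was 0.78 (SE 0.157, adjusted p = 0.0227 by limma). In KO it was 0.16, and the difference of the effects was -0.62 (adjusted p = 0.434). A second probe gave 4.29 and 4.34, 5.15 and 5.12, 4.39 and 4.55, and 4.70 and 4.60 in the same order of groups. On that probe the rise was 0.81, at least 1.42-fold because the vehicle arrays were below background. The second probe passed the detection filter only through the wild-type FA arrays, so no test of its rise is given. The third Dhrs9 probe was not detected on any array. The call of the gene probe was lost when any of the 4 wild-type arrays was left out, with adjusted p-values over 17 alternatives from 0.0197 to 0.147. Near background the size of the effect followed the correction: it was 0.23 without background correction (adjusted p = 0.0751, not called) and 0.38 with an offset of 50 (adjusted p = 0.0449).

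Adh1, the class I alcohol dehydrogenase, had 2 probes that rose with FA in wild type but differed in their call. The brighter probe read 9.18 and 8.07 in wild-type vehicle, 9.80 and 9.76 in wild-type FA, 9.18 and 9.32 in KO vehicle and 9.72 and 9.90 in KO FA. Its FA effect was 1.15 in wild type (SE 0.301, adjusted p = 0.056) and 0.56 in KO (adjusted p = 0.343). Wild-type vehicle was the group with the widest spread, and without its replicate 1 the effect was 1.71 (adjusted p = 0.00478) and without its replicate 2 it was 0.60 (adjusted p = 0.131), where the alternatives ranged from 0.00478 to 0.247.

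The other Adh1 probe read 7.07 and 6.65, 7.67 and 7.91, 7.77 and 7.51, and 8.26 and 8.23 in the same order. FA raised it in wild type by 0.93 (SE 0.192, adjusted p = 0.0246 by limma), and its KO effect was 0.60 (adjusted p = 0.122). On this probe all KO arrays were above the wild-type arrays of the same treatment, by 0.78 with vehicle and 0.46 with FA. On the brighter probe the corresponding differences were 0.62 and 0.03 and the groups overlapped. With vehicle, the brighter probe's difference was 1.17 without wild-type replicate 1 and 0.07 without replicate 2.

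Aldh1a1, a retinal dehydrogenase, was weak. It read 4.51 and 4.27 in wild-type vehicle, 4.74 and 4.62 in wild-type FA, 5.12 and 4.93 in KO vehicle and 5.46 and 4.66 in KO FA. It was detected on all 4 KO arrays and on 1 wild-type array, a wild-type FA array. With vehicle it was at least 1.31-fold higher in KO under this background correction only. The log2 difference was 0.64 here, 0.28 with an offset of 50 and 0.2 without background correction. With FA the genotypes overlapped, and the difference of 0.38 became -0.02 without KO FA replicate 1. The FA effects were 0.29 in wild type and 0.03 in KO, neither called, and the KO effect was -0.36 without KO FA replicate 1 and 0.43 without replicate 2.

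No receptor gene was called. Rxra, the retinoid X receptor of keratinocytes, was 5.65 and 5.57 in wild-type vehicle, 6.15 and 5.91 in wild-type FA, 6.09 and 5.71 in KO vehicle and 6.18 and 6.23 in KO FA. Its FA effects of 0.42 (adjusted p = 0.198 by limma) and 0.31 (adjusted p = 0.378) did not pass, although the FA arrays were above the vehicle arrays within each genotype. Rarg, the main epidermal retinoic acid receptor, read 7.27 to 7.73 on its brightest probe, with overlapping groups in each of the 4 pairwise comparisons. Its second probe gave 5.72 and 5.70 in wild-type vehicle and 6.30 and 5.96 in wild-type FA (0.42, adjusted p = 0.234). In KO that probe was 5.71 and 5.54 with vehicle and 5.96 and 5.55 with FA.

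In the genotype comparison, counts over the 7 tested genes are given only as a description, since Adh7 chose the genes and enters each of them. They were 1 with vehicle (Adh7), beside 0.51% of all tested probes, and 3 with FA (Adh7, Crabp2 and Dhrs9), beside 7.16%, and nothing is read from them. With FA, the KO difference was -0.95 for Crabp2 and -0.70 for Dhrs9, and neither overlapped between genotypes. With vehicle, their differences were 0.26 and -0.09. The second Dhrs9 probe differed by -0.48 with FA and was not among the calls, and the gene probe by -0.21 without background correction. Without KO FA replicate 1, the count with FA was 2, Crabp2 having dropped out.

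**Figure D3:**
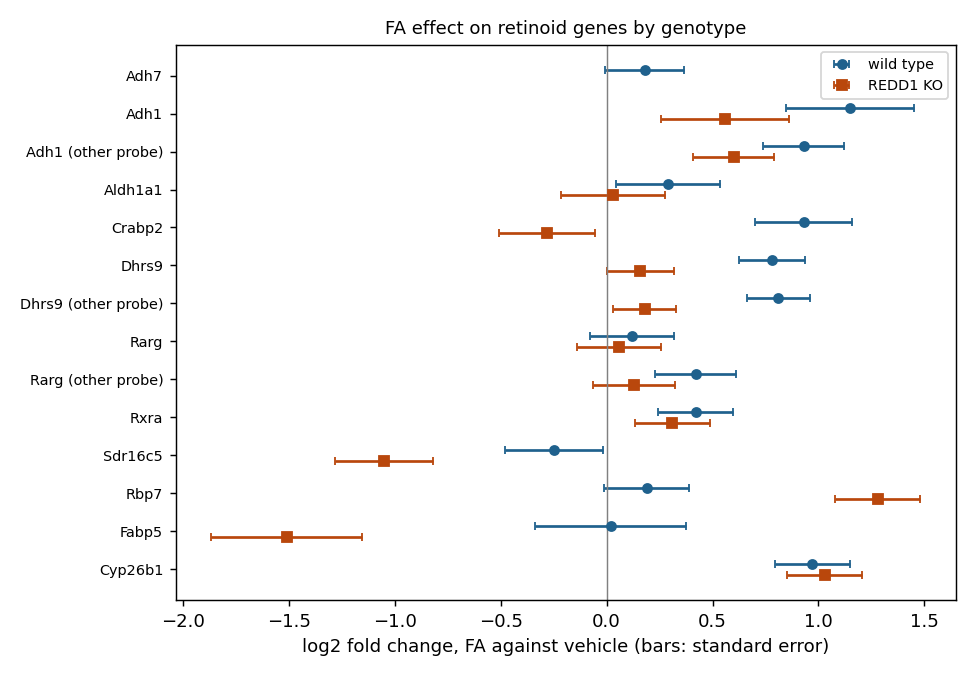
FA effect as log2 fold change against vehicle (x axis, bars of 1 standard error) for the tested probes of the retinoid genes and, below them, for the 4 other retinoid genes called in an FA contrast, in wild type (circles) and REDD1 KO (squares). Adh7 has no KO value because it was below background in both KO groups; Crabp2 moves by 0.93 in wild type and -0.28 in KO, while Cyp26b1 moves by 0.97 and 1.03.

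A wider list of 46 genes of retinoid uptake, storage, oxidation, binding, degradation and signalling was measured beside them. Of these, 41 had a probe and 29 were tested. For FA in wild type, limma called 1 of the 29 (Cyp26b1, higher), beside 6.34% of all tested probes. At an unadjusted p under 0.05 there were 5, beside 22.7%. In KO it called 4, beside 4.51% of all probes, with 10 at an unadjusted p under 0.05, beside 19.6%. Of these 4, Cyp26b1 and Rbp7 rose, while Fabp5 and Sdr16c5 fell. The list's median FA effect was 0.15 in wild type and 0.06 in KO. The difference between genotypes was called by limma for 0 of 29, beside 0.0305% of all probes, with 8 at an unadjusted p under 0.05, beside 9.92% of all probes.

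Cyp26b1, which hydroxylates retinoic acid for clearance, rose with FA in both genotypes. It was 6.25 and 5.94 in wild-type vehicle, 7.14 and 6.98 in wild-type FA, 6.42 and 6.13 in KO vehicle and 7.30 and 7.31 in KO FA. FA raised it by 0.97 in wild type (SE 0.177, adjusted p = 0.0155 by limma) and 1.03 in KO (adjusted p = 0.0147), and these effects differed by 0.06 (SE 0.25, adjusted p = 0.949). The wild-type call was lost without WT vehicle replicate 2 or either WT FA replicate, with adjusted p from 0.00775 to 0.121 over 18 alternatives. The KO call was lost without KO vehicle replicate 2 or KO FA replicate 1, with adjusted p from 0.00607 to 0.112. Without background correction the effects were 0.53 in wild type and 0.60 in KO, both still called.

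On its gene probe Rbp7, a cellular retinol-binding protein, was near background except after FA in KO. The other Rbp7 probe was not detected on any array. The gene probe read 4.33 and 4.48 in wild-type vehicle, 4.72 and 4.48 in wild-type FA, 4.68 and 4.50 in KO vehicle and 6.12 and 5.62 in KO FA. The KO FA effect was 1.28 (SE 0.2, adjusted p = 0.00917 by limma), and with FA it was 1.27 higher in KO than in wild type (adjusted p = 0.00993). The KO FA effect was no longer called without KO vehicle replicate 2 (adjusted p = 0.0721, the highest of 17 alternatives, the lowest being 0.00255). The genotype call was lost without WT FA replicate 2 (0.0985, where the lowest was 0.0028). Over the alternatives the KO FA effect ranged from 0.43 to 1.53 and the genotype difference from 0.43 to 1.52.

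Sdr16c5, a retinol dehydrogenase of epidermis, was 9.47 and 9.88 in KO vehicle and 8.64 and 8.61 in KO FA, a fall of 1.05 (SE 0.232, adjusted p = 0.0378 by limma). In wild type it was 9.45 and 9.02 with vehicle and 8.73 and 9.24 with FA. Leaving out any of the 4 KO arrays ended the KO call, with adjusted p over 18 alternatives from 0.00903 to 0.227. Fabp5, which carries fatty acids and retinoic acid to PPARδ, was 7.45 and 8.62 in KO vehicle and 6.28 and 6.76 in KO FA. It fell by 1.51 in KO (SE 0.356, adjusted p = 0.0484), a call that 13 of 18 alternatives lost, with adjusted p from 0.0185 to 0.219 and an effect of -0.93 without KO vehicle replicate 2. Without KO FA replicate 1, FA called 1 of the 29 genes in KO in place of 4.

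With vehicle, limma called no genotype difference among the 29 genes (0 called, beside 0.51% of all probes, and 4 at an unadjusted p under 0.05, beside 8.64%). With FA, 7 of 29 differed between genotypes, 2 higher and 5 lower in KO, where 7.16% of all tested probes were called. Of these 7, Rdh11, Dgat1 and Fabp5 lost their call without KO FA replicate 1. The list's median difference with FA was -0.13, against 0.02 for all tested probes.

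Rdh11, which interconverts retinol and retinal, showed the widest gap of these. It was 8.86 and 8.35 in wild-type vehicle, 9.48 and 10.58 in wild-type FA, 7.61 and 8.89 in KO vehicle and 6.67 and 7.67 in KO FA. With FA the KO arrays were 2.86 lower (SE 0.495, adjusted p = 0.0133 by limma). This call was lost in 4 of 18 alternatives. They were no probe filter (adjusted p = 0.0634), trended and robust moderation (adjusted p = 0.0796), and leaving out WT FA replicate 2 (-2.31) or KO FA replicate 1 (-2.36).

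Rdh9, a dehydrogenase of cis-retinols and steroids, was 10.04 on both wild-type vehicle arrays, 10.14 and 10.28 in wild-type FA, 9.44 and 9.55 in KO vehicle and 8.75 and 9.12 in KO FA. It was 1.28 lower in KO with FA (adjusted p = 0.00533) and lost its call only without WT FA replicate 2 (adjusted p = 0.0592, lowest 0.000403). Rdh9 has close copies, Rdh1, Rdh7, Rdh16 and Rdh19, and which of them its probe reads was not tested.

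Dgat1, which forms triglycerides and retinyl esters, was 7.74 and 8.12 in wild-type FA and 6.13 and 6.63 in KO FA (-1.55, adjusted p = 0.0367 by limma). Lpl, which hydrolyses lipoprotein triglycerides and retinyl esters, was 9.35 on both wild-type FA arrays and 8.00 and 6.50 in KO FA (-2.10, adjusted p = 0.0248). Fabp5 was 8.26 and 8.81 in wild-type FA, against 6.28 and 6.76 in KO FA (-2.01, adjusted p = 0.0143). Ttr, the partner of the serum retinol-binding protein, was 4.52 and 4.85 in wild-type FA and 6.54 and 7.46 in KO FA (2.32, adjusted p = 0.0266). In KO vehicle Lpl was 6.73 and 7.28 against 8.12 and 8.80 in wild type, a difference of -1.45 that was not called. Without KO FA replicate 1, the Lpl difference with FA was -2.84.

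None of these 4 calls held with every array left out in turn. Dgat1 lost its call without any of the 4 FA arrays (adjusted p from 0.0167 to 0.206 and differences from -1.79 to -0.99 over 18 alternatives). Lpl lost it without either WT FA replicate or KO FA replicate 2 (0.00582 to 0.144), and was -1.35 without the latter. The Ttr call was lost on leaving out the same 3 arrays (0.0126 to 0.14 over 17 alternatives, with differences from 1.01 to 2.78), and that of Fabp5 on leaving out either WT FA replicate or KO FA replicate 1 (0.00701 to 0.125).

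With FA, markers of the sebaceous gland were also lower in KO than in wild type. The summed linear signal of the 8 measured sebaceous markers was 4980 and 2440 in wild-type vehicle, 4540 and 6670 in wild-type FA, 1590 and 3670 in KO vehicle and 333 and 973 in KO FA. With FA, limma called 4 of the 6 tested sebaceous markers lower in KO, where 7.16% of all tested probes were called in either direction. Scd3 and Far2 were not detected on any array. In bulk epidermis, fewer cells of a type and less RNA per cell cannot be told apart. The part of the sebaceous signal in the differences of Rdh11, Rdh9, Dgat1, Lpl and Fabp5 was not tested. The median FA effect over the 6 tested sebaceous markers was 1.01 in wild type and -1.09 in KO. In the same order the effects were 1.42 and -1.08 for Rdh11 and 0.85 and -0.25 for Dgat1. They were 0.89 and 0.24 for Lpl, 0.02 and -1.51 for Fabp5, and 0.18 and -0.56 for Rdh9. Without KO FA replicate 1 the Lpl effect in KO was -0.5. Awat2, which esterifies retinol and is itself on the sebaceous list, was 6.41 ± 0.824 in wild-type FA and 5.12 ± 0.801 in KO FA (SD, n = 2 arrays each), a difference of -1.29 that was not called (adjusted p = 0.26 by limma).

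**Figure D4:**
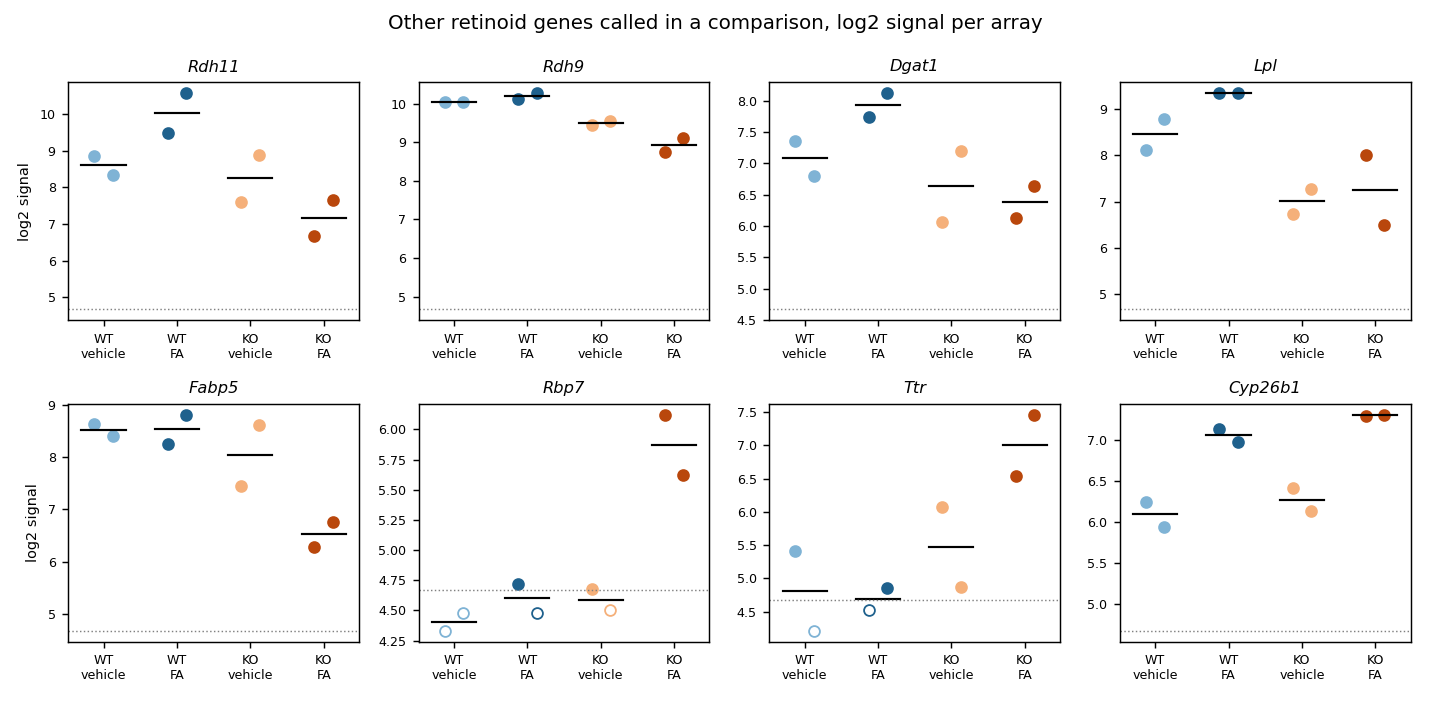
Log2 signal per array (y axis, a separate scale in each panel) of 8 further retinoid genes in the 4 groups (x axis), filled where detected and open where not, with black bars at group means and a dotted line at 4.67, the highest of the arrays' lowest detected signals. Rdh11, Rdh9, Dgat1, Lpl and Fabp5 are lower in KO FA than in wild-type FA, Rbp7 and Ttr higher, and Cyp26b1 rises with FA in both genotypes.

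Other genes of the pathway were measured with no call in any comparison. Rdh12, a retinal reductase, was 9.40 to 10.46, Rdh14 7.08 to 7.51, the gene probe of Rdh1 5.51 to 5.87, the retinoid X receptor gene Rxrb 9.21 to 9.81 and Cyp2s1, an epithelial cytochrome that metabolizes retinoic acid, 6.33 to 6.89. Aldh1a7 read 5.69 to 6.52, Bco1, which cleaves β-carotene, 5.47 to 6.18, Rbp2 4.88 to 5.46 and Crabp1 4.19 to 5.18. A second Rdh1 probe, by contrast, was lower in KO with FA (-1.30, adjusted p = 0.0182 by limma). Nearer to background were Lipe, a lipase that also hydrolyses retinyl esters, at 4.41 to 5.16, and Aldh8a1 at 4.26 to 4.77. On the other side, 9 of the 41 measured genes were not detected on any array, among them the retinol receptor gene Stra6, the serum carrier gene Rbp4, Dhrs3 and the receptor gene Rara.

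Among 15 genes known to respond to retinoic acid, 11 had a probe and only 3 were tested. Cyp26b1 rose in both genotypes, as given for the wider list. Tgm2, transglutaminase 2, was 6.57 and 5.57 in wild-type vehicle, 7.77 and 8.93 in wild-type FA, 7.02 and 6.82 in KO vehicle and 7.88 and 7.36 in KO FA. FA raised it in wild type by 2.28 (adjusted p = 0.0143 by limma), with effects from 1.47 to 2.86 over 18 alternatives. This call of Tgm2 was lost without a probe filter (adjusted p = 0.0703), without WT vehicle replicate 2 or without WT FA replicate 2. Its KO effect was 0.70 (adjusted p = 0.38), and the difference between genotypes did not pass (-1.58, adjusted p = 0.435). Hbegf, a growth factor of keratinocytes, read 4.85 to 5.88 and was not called. The classical targets Rarb and Cyp26a1 were each detected on 1 array.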

How the data were processed

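Epidermal RNA of 8 animals was hybridised to Illumina MouseRef-8 v2.0 arrays. The authors deposited scanner intensity values with a detection p-value per probe, and log2 values that they made with limma's neqc (normexp background correction on the negative controls, then quantile normalization); the sources used here name no limma version for that step. The deposited log2 values were analysed. Rebuilding them from the deposited intensities, with 798 control lines taken as negative controls, 34 as other controls and an offset of 16, gave differences of at most 5e-09.

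Groups were taken from the labels. Probes with a detection p under 0.05 on at least 2 of 8 arrays (13131 of 25697) were fitted with limma 3.58.1 in R 4.3.3, with 1 mean per group over all 8 arrays (4 residual and 5.08 prior degrees of freedom), and checked on simulated data. Contrasts were FA against vehicle in each genotype, their difference, and KO against wild type in each treatment. Two-sided p-values were adjusted over all tested probes. Gene symbols came from the platform annotation, updated for 23962 probes through the gene number, while 1719 probes had none. A gene was represented by its probe of highest mean signal. All 9 genes, list genes called in any comparison and up to 4 more per role, the brightest, were to be named. The members, lists and tests were chosen with earlier results of these data known. Array precision is limited by 2 animals per group. Alternatives were other background correction, offset, normalization, filters, moderation, weights, a replicate block, 4 arrays only and leaving out each array.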

Additional observations from a re-analysis of the deposited data

How the results depend on the processing

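The count of the 7 tested retinoid genes called for FA in wild type was 2, and 1 without background correction, without a probe filter, with the replicate number as a block or with only the 4 arrays compared; with median centring it was 2, Adh1 taking the place of Crabp2. Genotype counts, which include Adh7, are given only as a description. With FA, the genotype count of 3 was 1 with median centring or a filter on detection on all 8 arrays. With vehicle, the genotype count of 1 was 0 under that filter, which leaves Adh7 out. For the other retinoid genes, the FA count in KO was 4, and 2 without a probe filter or with only the 4 arrays compared, and the genotype count with FA was 7, and 2 without a probe filter, which tests more probes. Leaving out each array in turn gave 0 to 2 retinoid genes for FA in wild type, 0 for FA in KO and for the genotype dependence, 1 with vehicle and 1 to 3 with FA for genotype. For the other genes it gave 0 to 1, 0 to 3, 0, 0 and 0 to 7. A second Rdh1 probe gave a genotype difference with FA of -1.30 where the gene probe gave 0.03; the cause was not tested. Nothing in the labels says that replicate numbers pair the arrays, and the correlations of same-numbered deviations ran from -0.107 to 0.252 over the 6 pairs of groups (-0.0688 for FA in wild type, 0.252 for FA in KO, -0.0297 for genotype with vehicle and 0.229 with FA), so they were taken as sharing only a number. Blocking on them also ended the calls of Crabp2 (adjusted p = 0.0619) for FA in wild type and Sdr16c5 (0.0513) for FA in KO. Of values for single genes, 1759 kept their direction and side, 68 lost a call, 6 gained one, 25 moved beyond the replicate spread and 1 reversed. Over all tested probes the calls ranged from 143 to 1085 for FA in wild type (833 as reported), 178 to 791 in KO (592), 0 to 31 for their difference (4), 17 to 90 with vehicle (67) and 91 to 1255 with FA (940). Signals near 4.67 log2 units are near background, which limits Aldh1a1, Dhrs9, Rbp7 and KO Adh7.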
